A study of Bos taurus with 14 samples.

Results

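LCN2 (ENSBTAG00000014149), SERPINA1 (ENSBTAG00000018843) and C3 (ENSBTAG00000017280) encode secreted proteins of the acute-phase and innate immune response. They are 3 of the 24616 genes counted in bovine endometrial explants cultured with or without synthetic preimplantation factor (sPIF), a copy of a peptide secreted by the early embryo. The genes were chosen by their higher expression with sPIF in these same explants, so their levels with and without sPIF are given here as a description, with no test of that contrast. Each of the 3 genes had at least 10 counts in every library, and all 3 are therefore among the 13233 genes that passed this filter and were tested.

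LCN2 encodes lipocalin 2, which binds bacterial siderophores and so withholds iron from bacteria. SERPINA1 encodes alpha-1-antitrypsin, the serine protease inhibitor best known for blocking neutrophil elastase. C3 encodes the central complement component, whose cleavage opsonises microbes and starts the later steps of the complement cascade. The liver is the main source of the circulating acute-phase proteins, and epithelia and leukocytes also produce several of them. Because SERPINA1 belongs to a family of related genes, the handling of reads that match several genes could affect its count, and the sources used here do not state that handling.

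Explants of intercaruncular endometrium came from 7 heifers at slaughter, called cows 1 to 7, after ovaries had been staged for a regressing corpus luteum and cytology had been used to screen for inflammation. From each animal, 1 Control explant, kept in medium with the DMSO vehicle, and 1 explant kept with 100 nM sPIF were sequenced, both after 30 h. Lane 1 of the flow cell held both libraries of cows 1 to 4, and lane 2 held those of cows 5 to 7, which were sequenced in 2 runs whose counts were added. Cows 2 to 5 formed the high and cows 1, 6 and 7 the low serum progesterone group. The total count was 15885642 to 25771250 in the Control libraries (median 17752182) and 16377453 to 28625724 in the sPIF libraries (median 21169927). The sPIF library had the larger total in 5 of 7 cows. Levels are CPM, in which each library is scaled to the same total, after TMM normalisation, which also allows for differences in library composition. Explants hold epithelium, stroma, vessels and leukocytes together, so fewer cells of a type and less RNA per cell cannot be told apart. The labelled tissue could not be checked against its markers, since most gene identifiers in these counts have no symbol in the sources used here.

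The sPIF and Control explants of cow 3 differed from each other more than those of any other cow. Over the tested genes, the log2 difference between its sPIF and Control explants had an SD of 0.759, while the SD lay between 0.347 and 0.510 in the other 6 cows. The main values are therefore also given without cow 3, and for the interactions and correlations this was chosen after seeing the data.

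LCN2 was higher in the sPIF explant than in the Control explant of all 7 cows. In Control explants it was 7.20 CPM in cow 4, 6.55 CPM in cow 7, 5.76 CPM in cow 1, 3.89 CPM in cow 2, 2.39 CPM in cow 6, 0.625 CPM in cow 3 and 0.554 CPM in cow 5. With sPIF it was 16.5 CPM in cow 1, 14.8 CPM in cow 7, 9.22 CPM in cow 4, 7.22 CPM in cow 2, 7.02 CPM in cow 6, 2.24 CPM in cow 3 and 1.20 CPM in cow 5. Cows 3 and 5 were the lowest in both groups, and the groups overlapped, with 4 sPIF explants above the highest Control explant and 2 Control explants below the lowest sPIF explant. The mean was 3.85 ± 2.76 CPM in Control and 8.31 ± 5.77 CPM in sPIF explants (SD, n = 7 cows), or 4.39 ± 2.59 CPM and 9.32 ± 5.60 CPM without cow 3. The ratio of sPIF to Control was smallest in cow 4, at 1.28 (95% counting interval 1.02 to 1.61), and largest in cow 3, at 3.58 (2.00 to 6.70). In cow 3, where the differences of all genes spread more widely, the LCN2 difference was larger than that of 96.4% of tested genes, against 99.8% in cows 1 and 6. The wide interval of cow 3 comes from 17 and 43 counts, and that of cow 5, 1.05 to 4.93 around a ratio of 2.18, from 10 and 35 counts. In the other 5 cows each library held at least 43 LCN2 counts. These intervals cover counting error only and not the difference between pieces of tissue from 1 animal, for which there was no replicate.

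SERPINA1 was also higher with sPIF in all 7 cows, and its ratio varied most between animals. In Control explants it was 53.2 CPM in cow 2, 27.5 CPM in cow 1, 24.8 CPM in cow 4, 23.1 CPM in cow 7, 7.28 CPM in cow 6, 5.92 CPM in cow 5 and 2.43 CPM in cow 3. With sPIF it was 94.9 CPM in cow 2, 71.1 CPM in cow 1, 39.3 CPM in cow 6, 32.9 CPM in cow 7, 31.8 CPM in cow 4, 11.1 CPM in cow 5 and 10.7 CPM in cow 3. Cows 2 and 1 were the highest and cows 5 and 3 the lowest in both groups, while cow 6 moved from the low to the middle range. The groups overlapped, with 2 sPIF explants above the highest Control explant and 3 Control explants below the lowest sPIF explant. The mean was 20.6 ± 17.6 CPM in Control and 41.7 ± 31.0 CPM in sPIF explants (SD, n = 7 cows), or 23.6 ± 17.1 CPM and 46.9 ± 30.5 CPM without cow 3. The ratio was 5.40 (95% counting interval 4.48 to 6.55) in cow 6 and 4.40 (3.32 to 5.90) in cow 3. It was 1.28 (1.14 to 1.45) in cow 4 and 1.42 (1.26 to 1.62) in cow 7. The intervals of the former pair lay entirely above those of the latter pair, but these are the largest and the smallest ratios, picked after seeing them. The intervals cover counting error only, and the source of the spread between cows was not tested. In cow 6 the log2 difference of SERPINA1 was larger than that of 99.98% of tested genes, and in cow 4 it was larger than that of 85.9%. In cow 3, where the differences of all genes spread more widely, it was larger than that of 98.0%, as in cow 2 with a ratio of 1.79.

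C3 was higher with sPIF in all 7 cows as well, but by small ratios in most of them. In Control explants it was 59.4 CPM in cow 4, 54.9 CPM in cow 1, 41.1 CPM in cow 3, 40.8 CPM in cow 7, 32.4 CPM in cow 2, 25.2 CPM in cow 5 and 20.7 CPM in cow 6. With sPIF it was 151 CPM in cow 1, 109.7 CPM in cow 4, 50.4 CPM in cow 3, 47.7 CPM in cow 7, 44.4 CPM in cow 2, 36.7 CPM in cow 5 and 22.2 CPM in cow 6. The sPIF explants of cows 1 and 4 were set apart at the top, and the other 5 lay within the range of the Control explants. Apart from an exchange of cows 1 and 4, the order of the cows was the same in both groups. The mean was 39.2 ± 14.4 CPM in Control and 66.0 ± 46.5 CPM in sPIF explants (SD, n = 7 cows), or 38.9 ± 15.8 CPM and 68.6 ± 50.3 CPM without cow 3. The ratio was 2.75 (95% counting interval 2.55 to 2.96) in cow 1 and 1.85 (1.72 to 1.99) in cow 4. In the remaining cows it lay between 1.07 and 1.45. Cow 6 had the smallest ratio, 1.07 with an interval of 0.933 to 1.24, from 372 and 433 counts.

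**Figure D1:**
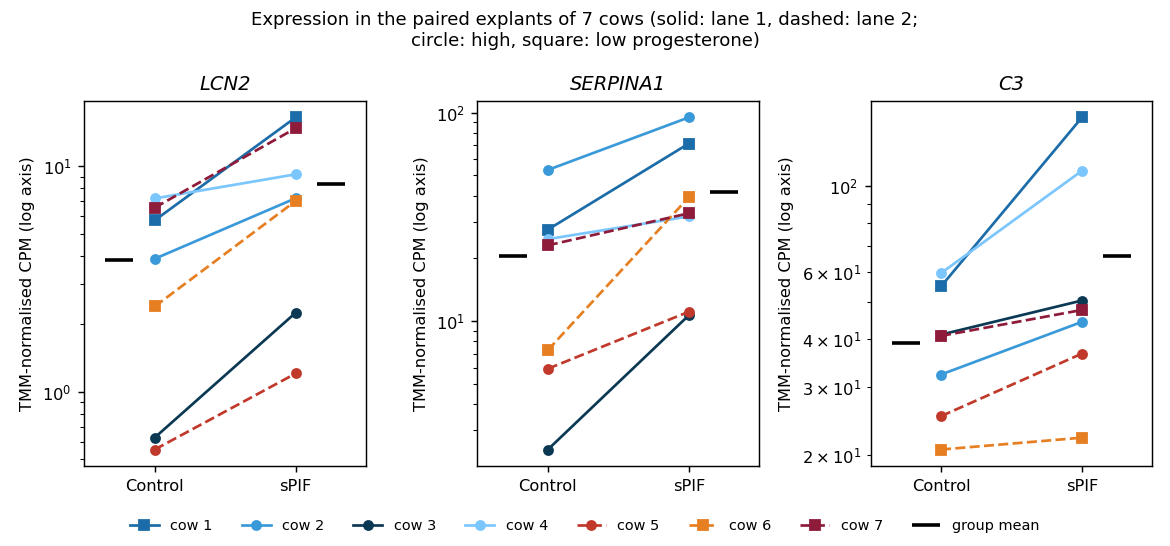
Level of LCN2, SERPINA1 and C3 in CPM (log axis) in the Control and sPIF explants, with a line for each of 7 cows, solid for lane 1 and dashed for lane 2, circles for high and squares for low progesterone, and black bars for the group means. Every line goes up from Control to sPIF, and the ranges of both groups overlap for each gene.

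The cow with the largest ratio was not the same for the 3 genes. Cow 6 had the largest SERPINA1 ratio, an LCN2 ratio of 2.94 (95% counting interval 2.07 to 4.24) and the smallest C3 ratio. Cow 3 had high ratios for LCN2 and SERPINA1 and a C3 ratio of 1.23 (1.12 to 1.34). Cow 4 had the smallest ratio for both LCN2 and SERPINA1 and the next to largest for C3. Cow 1 alone had a ratio above 2.5 for all 3 genes, with 2.86 (2.27 to 3.64) for LCN2 and 2.59 (2.33 to 2.88) for SERPINA1. The order of the cows by ratio was thus more alike for LCN2 and SERPINA1 than for either of them and C3.

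**Figure D2:**
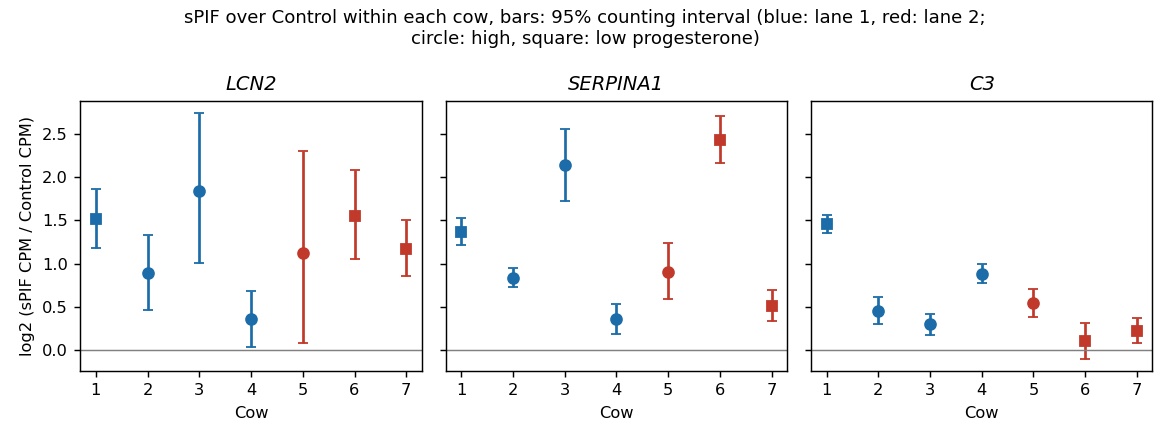
Ratio of sPIF to Control CPM within each cow on a log2 axis, with 95% counting intervals as bars, blue for lane 1 and red for lane 2, circles for high and squares for low progesterone. SERPINA1 reaches its largest ratio, 5.40, in cow 6, where C3 has its smallest, 1.07.

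With cow as a block, the log2 fold change from Control to sPIF was 1.18 (SE 0.18) for LCN2, 1.18 (SE 0.25) for SERPINA1 and 0.57 (SE 0.15) for C3, against a median of 0.00 over all tested genes. Counted from the largest fold change, SERPINA1 was at rank 5, LCN2 at rank 6 and C3 at rank 134 of 13233 genes, and 8 genes had a log2 fold change above 1. Without cow 3 the values were 1.09 for LCN2, 1.05 for SERPINA1 and 0.62 for C3. In lane 2 alone the value for C3 was 0.30, and in lane 1 alone it was 0.78. All 3 genes were higher in 7 of 7 cows, as were 176 of the tested genes (1.33%), and nothing is read from this count since the same contrast chose the genes. For the contrast over all genes, edgeR's quasi-likelihood test called 0 of 13233 genes (0%) at a Benjamini-Hochberg adjusted p below 0.1, with 1061 genes at an unadjusted p under 0.05. DESeq2's Wald test called 100 genes (0.756%).

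Before any effect of sPIF is considered, LCN2 and SERPINA1 differed between the Control explants of the 7 cows more than nearly all other genes. With 1 Control explant per cow, differences between animals and between pieces of tissue cannot be told apart. LCN2 was also scarce, more abundant than only 12.4% of tested genes, so counting error adds to its SD. The SD of log2 CPM over the 7 Control explants was 1.48 for LCN2 and 1.55 for SERPINA1, larger than for 99.1% and 99.3% of tested genes. For C3 it was 0.56, larger than for 74.5% of genes, while the median gene had 0.38. Without cow 3 the SD was 1.32 for LCN2, 1.21 for SERPINA1 and 0.61 for C3, larger than for 98.8%, 98.2% and 81.0% of genes. From the lowest to the highest Control explant, LCN2 spanned 13.0-fold, SERPINA1 21.9-fold and C3 2.88-fold. In sPIF explants the span was 13.7-fold for LCN2, 8.89-fold for SERPINA1 and 6.80-fold for C3. The span of SERPINA1 in Control explants rested on cows 3 and 2, the lowest and the highest, and was 8.97-fold without cow 3 and 11.3-fold without cow 2, beside 8.54-fold and 6.66-fold in sPIF explants. For C3 the span in sPIF explants was 4.94-fold without cow 1 and 4.11-fold without cow 6, and for LCN2 it was 7.36-fold without cow 5. Neighbouring cows were often close, such as cows 1, 7 and 4 for LCN2 in Control explants and cows 7 and 3 for C3 in both groups, and with 1 explant per cow and group their order has no error beyond counting.

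Cow accounted for most of the variation in each gene. Such raw shares are expected to be larger for a factor with more groups, as cow has, even without an effect. Of the sum of squares of log2 CPM over the 14 explants, cow took 81.6% for LCN2, 75.1% for SERPINA1 and 78.6% for C3, near the median gene with 75.6%. The share of sPIF was 16.2% for LCN2, 18.3% for SERPINA1 and 13.5% for C3, against 2.32% for the median gene, and nothing is read from this since the genes were chosen by that contrast. Lane, as a part of the share of cow, took 38.1% for C3 but 3.37% for LCN2 and 6.53% for SERPINA1, and the median gene had 27.9%. Without cow 3 the share of lane was 43.2% for C3, 19.7% for LCN2, 41.2% for SERPINA1 and 33.5% for the median gene, so the low share in SERPINA1 rested on that cow. Progesterone group took 25.3% for LCN2, 5.76% for SERPINA1 and 0.0654% for C3, against 8.64% for the median gene. Without cow 3 its share was 17.7% for LCN2, 0.243% for SERPINA1, 0.0531% for C3 and 7.76% for the median gene. The share of cow was then 81.3% for LCN2, 70.9% for SERPINA1 and 79.0% for C3.

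C3 was lower in the cows of lane 2 than in those of lane 1. In Control explants it was 47.0 ± 12.4 CPM in lane 1 (SD, n = 4 cows) and 28.9 ± 10.6 CPM in lane 2 (SD, n = 3 cows). In sPIF explants it was 88.9 ± 50.8 CPM in lane 1 and 35.5 ± 12.8 CPM in lane 2. The lanes overlapped in both groups, because cow 7 of lane 2 lay above cow 2 of lane 1. After adding up the 2 libraries of each cow, the log2 fold change of C3 from lane 1 to lane 2 was -1.11 (SE 0.41), and the quasi-likelihood F test of edgeR gave a Benjamini-Hochberg adjusted p = 0.0744. This made C3 the 1 of the 3 genes below the threshold of 0.1, beside 5236 of all tested genes (39.6%), so the count for the 3 genes was near the background. The call was lost without cow 1 (-0.83, adjusted p = 0.155), cow 4 (-0.97, adjusted p = 0.144), cow 5 (-1.10, adjusted p = 0.163) or cow 6 (-0.88, adjusted p = 0.200), and without cow 3 the value was -1.27 (adjusted p = 0.0591). With Control explants alone it was -0.72 (adjusted p = 0.117). DESeq2's Wald test on all cows gave -1.10 for C3 (adjusted p = 0.0185) and called 5637 genes between lanes. Lane and the origin of the cows cannot be told apart, as no animal was sequenced in both lanes.

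SERPINA1 and LCN2 did not pass the test between lanes. SERPINA1 was 27.0 ± 20.8 CPM in lane 1 and 12.1 ± 9.57 CPM in lane 2 in Control explants (SD, n = 4 and 3 cows), and 52.1 ± 38.0 CPM and 27.8 ± 14.8 CPM in sPIF explants. Between lanes the log2 fold change of SERPINA1 was -0.95 (SE 0.73, edgeR adjusted p = 0.356), and without cow 3, the lowest cow of lane 1, it was -1.32 (edgeR adjusted p = 0.0749), below the threshold. It was -0.50 without cow 2 (edgeR adjusted p = 0.649) and -0.60 without cow 5 (edgeR adjusted p = 0.629). LCN2 was 4.37 ± 2.84 CPM in lane 1 and 3.17 ± 3.08 CPM in lane 2 in Control explants, and 8.79 ± 5.91 CPM and 7.66 ± 6.81 CPM in sPIF explants. The log2 fold change of LCN2 was -0.25 (SE 0.84, edgeR adjusted p = 0.847), or -0.60 without cow 3 (edgeR adjusted p = 0.582), and it turned positive without cow 1 (0.16) or cow 5 (0.26) and was -1.23 without cow 7 (edgeR adjusted p = 0.364). For LCN2 each lane held both a cow with very low and a cow with high expression, cows 3 and 4 in lane 1 and cows 5 and 7 in lane 2.

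Progesterone can change endometrial gene expression, and the cows were therefore compared by serum progesterone group. LCN2 was lower in the high group in both kinds of explant but did not pass the test, with 3.07 ± 3.17 CPM in the Control explants of the high group (SD, n = 4 cows) and 4.90 ± 2.21 CPM in those of the low group (SD, n = 3 cows). With sPIF it was 4.97 ± 3.86 CPM in the high and 12.8 ± 5.05 CPM in the low group. The groups overlapped, since cow 4 of the high group was the highest Control explant and the next below cows 1 and 7 among sPIF explants. The log2 fold change from low to high progesterone was -1.20 (SE 0.72) for LCN2, with an edgeR Benjamini-Hochberg adjusted p = 0.852, and -0.91 without cow 3 (edgeR adjusted p = 0.990). It was -1.86 without cow 4 (edgeR adjusted p = 0.980) and -0.66 in Control explants alone (edgeR adjusted p = 0.989). Progesterone and lane overlapped in part, since cows 2, 3 and 4 of the high group were in lane 1 and cows 6 and 7 of the low group in lane 2. With lane as a covariate the value of LCN2 was -2.04 (SE 0.81, edgeR unadjusted p = 0.0384, adjusted p = 1.00).

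SERPINA1 and C3 also did not pass the test between progesterone groups. SERPINA1 was 21.6 ± 23.2 CPM in the high and 19.3 ± 10.6 CPM in the low group in Control explants, and 37.1 ± 39.8 CPM and 47.8 ± 20.5 CPM in sPIF explants. C3 was 39.5 ± 14.8 CPM in the high and 38.8 ± 17.2 CPM in the low group in Control explants, and 60.3 ± 33.4 CPM and 73.6 ± 68.2 CPM in sPIF explants. In every one of these comparisons the difference of the means was smaller than the SD within the groups. The log2 fold change was -0.25 (SE 0.76, edgeR adjusted p = 0.936) for SERPINA1 and -0.17 (SE 0.54, edgeR adjusted p = 0.940) for C3. Without cow 3 it was 0.08 for SERPINA1 and -0.12 for C3, and without cow 1 it was 0.15 for SERPINA1 and 0.65 for C3, so neither gene kept its direction. Without cow 2 SERPINA1 was at -1.24, and without cow 4 or cow 6 C3 was at -0.59 or -0.57. With lane as a covariate the log2 fold change was -0.995 (SE 0.81) for SERPINA1 and -0.49 (SE 0.40) for C3, with an edgeR adjusted p = 1.00 for both. None of the 3 genes passed, beside 0 of all tested genes (0%) by edgeR at an adjusted p below 0.1, with 458 genes at an unadjusted p under 0.05. DESeq2 called 24 genes (0.181%) in this comparison, and none of them was LCN2, SERPINA1 or C3.

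Whether the difference between sPIF and Control explants depended on lane was tested with an interaction term. The log2 difference of C3 was 0.77 ± 0.520 in lane 1 (SD, n = 4 cows) and 0.29 ± 0.225 in lane 2 (SD, n = 3 cows). For LCN2 it was 1.11 ± 0.612 in lane 1 and 1.23 ± 0.265 in lane 2, and for SERPINA1 it was 1.16 ± 0.744 and 1.27 ± 1.01. The means of LCN2 and SERPINA1 were thus close in both lanes, and that of C3 was lower in lane 2. The lane 2 mean of SERPINA1 rested on cow 6, at 2.42, while cows 5 and 7 were at 0.90 and 0.51. The interaction, as lane 2 minus lane 1 on the log2 scale, was -0.48 (SE 0.27, edgeR adjusted p = 0.523) for C3, 0.21 (SE 0.38, edgeR adjusted p = 0.859) for LCN2 and 0.14 (SE 0.51, edgeR adjusted p = 0.935) for SERPINA1. Without cow 3 it was -0.65 for C3 (edgeR unadjusted p = 0.0302, adjusted p = 0.500), 0.38 for LCN2 (edgeR adjusted p = 0.761) and 0.40 for SERPINA1 (edgeR adjusted p = 0.800). None of the 3 passed, beside 0 of 13233 genes (0%) by edgeR at an adjusted p below 0.1 and 1516 at an unadjusted p under 0.05. DESeq2 called 175 genes (1.32%), with adjusted p = 0.554 for C3, 0.919 for LCN2 and 0.961 for SERPINA1.

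The same question was asked of progesterone group. The log2 difference of LCN2 was 0.98 ± 0.552 in the high (SD, n = 4 cows) and 1.39 ± 0.202 in the low group (SD, n = 3 cows). It was 1.05 ± 0.738 and 1.43 ± 0.956 for SERPINA1, and 0.54 ± 0.249 and 0.59 ± 0.750 for C3. For SERPINA1 and C3 the difference between the groups was smaller than the SD within each group, while for LCN2 it was larger than the SD of the low and smaller than that of the high group. The mean and SD of C3 in the low group rested on cow 1, at 1.46, while cows 6 and 7 were at 0.10 and 0.22. The interaction, as high minus low, was -0.44 (SE 0.36) for LCN2, -0.41 (SE 0.50) for SERPINA1 and -0.06 (SE 0.32) for C3, with an edgeR adjusted p = 1.00 for each. Without cow 3 it was -0.69 for LCN2, -0.72 for SERPINA1 and 0.03 for C3, with an edgeR adjusted p = 0.999 for each. The unadjusted edgeR p of LCN2 was then 0.0555, and the log2 difference of LCN2 in cows 2, 4 and 5 of the high group (0.35 to 1.00) lay below that in cows 1, 6 and 7 of the low group (1.16 to 1.52). Cow 3 of the high group, left out after seeing the data, had the largest LCN2 difference of all cows, 1.69. None of the 3 passed, beside 0 of all tested genes (0%) by both edgeR and DESeq2, and edgeR gave 187 genes with an unadjusted p under 0.05.

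Across the 14 explants, LCN2 and SERPINA1 had the closest profiles of the 3 pairs. Pearson's r of log2 CPM was 0.851 (Spearman's rho 0.798) for LCN2 with SERPINA1, 0.546 (0.587) for LCN2 with C3 and 0.405 (0.319) for SERPINA1 with C3. These values are descriptions with no p, because both explants of a cow share the animal and because all 3 genes were chosen for a higher level with sPIF. After centring within lane r was 0.847, 0.560 and 0.325 for the same pairs. Among the 13232 other tested genes, SERPINA1 was the 14th most correlated with LCN2, and LCN2 was the 26th most correlated with SERPINA1. Centred within lane these ranks were 33 and 69, and in the 7 Control explants alone, which leave out the contrast that chose the genes, they were 95 and 131. C3 was at rank 726 for LCN2 and at rank 1996 for SERPINA1, and in Control explants alone at ranks 1295 and 2988.

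**Figure D3:**
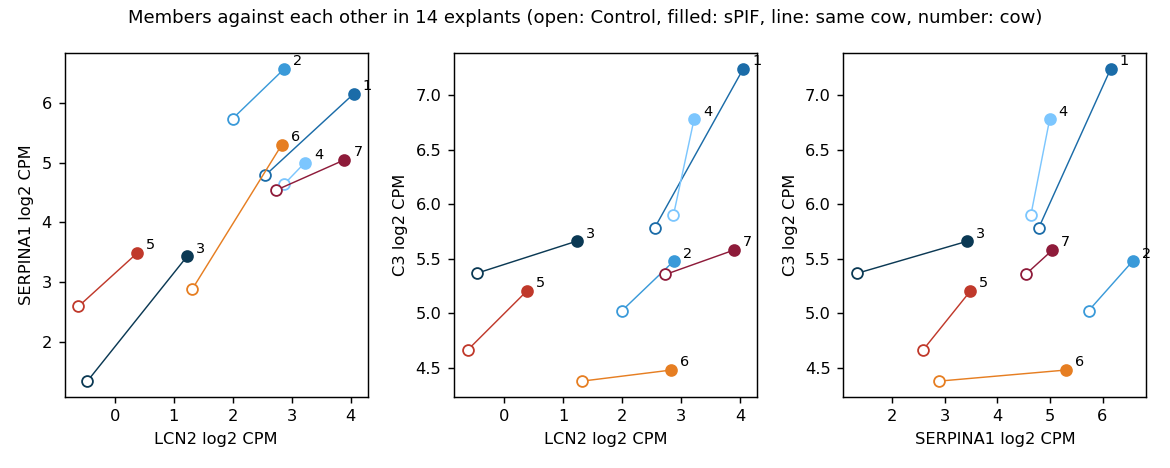
Log2 CPM of the 3 genes against each other in 14 explants, with open circles for Control, filled circles for sPIF and a line joining the explants of each numbered cow. In the plot of SERPINA1 against LCN2 the explants of cows 3 and 5 and the Control explant of cow 6 lie at the low end, and Pearson's r over the explants is 0.851.

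With the cow as the unit, each pair was compared in Control explants, in sPIF explants and for the difference within the cow, which gave 9 correlations over 7 cows, of which those of the differences are given without p, since the differences chose the genes. The p-values of the other 6 were adjusted over these 6 by the Benjamini-Hochberg method, a family chosen after seeing the data. In Control explants r was 0.847 for LCN2 with SERPINA1 (exact two-sided permutation test over 5040 pairings, p = 0.0169, adjusted p = 0.101), and rho was 0.643 (exact permutation p = 0.139). In sPIF explants r was 0.791 (exact permutation p = 0.0411, adjusted p = 0.123) and rho was 0.571 (exact permutation p = 0.200). Without cows 3 and 5, the farthest from the median of LCN2, r was 0.525 in Control and -0.0892 in sPIF explants. Leaving out the extremes of LCN2 narrows its range, which by itself can lower r. Without cow 3 alone r was 0.758 in Control (exact permutation p = 0.0806) and 0.725 in sPIF explants (exact permutation p = 0.135). Centred within lane it was 0.840 and 0.784, and the lanes, with 4 and 3 cows, held too few for values of their own.

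The difference between sPIF and Control was also compared between LCN2 and SERPINA1. Over the 7 cows r was 0.823 and rho was 0.857. Centred within lane r was 0.822, without cows 3 and 4 it was 0.743, and without cow 3 alone it was 0.763. Cows 6, 3 and 1 had large differences in both genes and cow 4 a small one in both. None of the 6 correlations of levels had an adjusted p below 0.1, although in Control explants the exact permutation p of LCN2 with SERPINA1 was 0.0973 when adjusted over all 9.

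C3 was compared with LCN2 and SERPINA1 in the same way, and differences between correlations were not tested. In Control explants r was 0.531 with LCN2 (exact permutation p = 0.219, adjusted p = 0.426; rho 0.643, exact permutation p = 0.139) and 0.371 with SERPINA1 (exact permutation p = 0.406, adjusted p = 0.487; rho 0.286, exact permutation p = 0.556). In sPIF explants r was 0.462 with LCN2 (exact permutation p = 0.284, adjusted p = 0.426; rho 0.643, exact permutation p = 0.139) and 0.276 with SERPINA1 (exact permutation p = 0.551, adjusted p = 0.551; rho -0.0357, exact permutation p = 0.963). For the differences within the cow r was -0.173 with LCN2 (rho -0.464) and -0.289 with SERPINA1 (rho -0.357). In Control and sPIF explants none of these correlations of C3 over the 7 cows had an adjusted p below 0.1. Cow 1 was high in the differences of all 3 genes while cows 3 and 6 were high in those of LCN2 and SERPINA1 and low in that of C3. Centred within lane, r of C3 with LCN2 was 0.540 in Control explants, 0.467 in sPIF explants and -0.118 for the differences, and r of C3 with SERPINA1 was 0.264, 0.100 and -0.298. Without cows 3 and 5 r with LCN2 was 0.937 in Control (exact permutation p = 0.0250, unadjusted) and 0.632 in sPIF explants, and r with SERPINA1 was 0.541 and 0.129. For the differences r was 0.287 with LCN2 without cows 3 and 4, and 0.619 with SERPINA1 without cows 3 and 6, so both changed sign. Without cow 3 alone r with LCN2 was 0.746, 0.493 and -0.0524 in Control explants, sPIF explants and differences, and r with SERPINA1 was 0.645, 0.300 and -0.194. In these 6 cows rho of C3 with LCN2 was 0.886 in both Control and sPIF explants (exact permutation p = 0.0333 for each, unadjusted), while rho of SERPINA1 with LCN2 was 0.486 (exact permutation p = 0.356) and 0.371 (exact permutation p = 0.497). Which of SERPINA1 and C3 had the higher correlation with LCN2 within a group thus depended on the measure and on the cows used.

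Among the 85 other genes with a symbol, those most like LCN2 over the 14 explants were SLC5A5, the sodium/iodide symporter, with r = 0.922 (0.926 centred within lane), ABLIM3, an actin-binding protein, with r = 0.895 (0.892), SERPINA1, PKDCC with r = 0.777 (0.835) and NT5DC1 with r = 0.768 (0.768). SLC5A5 was also the most correlated of all 13232 genes. For SERPINA1 they were ABLIM3 with r = 0.918 (0.918), LCN2, PLEK2 with r = 0.824 (0.816), SLC5A5 with r = 0.820 (0.829) and PKDCC with r = 0.796 (0.882). LCN2 and SERPINA1 therefore shared ABLIM3, SLC5A5 and PKDCC. For C3 they were SQLE, an enzyme of cholesterol synthesis, with r = 0.771 (0.613), CYP24A1, which inactivates vitamin D, with r = 0.770 (0.597), NT5DC1 with r = 0.577 (0.468), AOX1 with r = 0.548 (0.313) and LCN2. Among all 13232 genes, SQLE and CYP24A1 were at ranks 26 and 28 for C3. NT5DC1, AOX1 and LCN2 were only at ranks 994, 1273 and 1295. For C3, r with SQLE, CYP24A1, NT5DC1 and AOX1 was lower once the values were centred within lane. The genes with a symbol come from the study's own list of genes changed by sPIF in these explants, so they share the contrast that chose LCN2, SERPINA1 and C3, and r describes these explants only.

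Few other genes of the same families could be named. Of 36 complement genes looked for only C3 had a symbol, of 26 acute-phase genes only the 3 described, and of 23 lipocalin and iron genes only LCN2. The serpins SERPINB9, an intracellular inhibitor of granzyme B, and SERPINH1, a collagen chaperone, were measured beside SERPINA1, and the study chose both on the same contrast. SERPINB9 was 8.72 ± 3.87 CPM in Control and 5.10 ± 1.20 CPM in sPIF explants (SD, n = 7 cows), lower in 7 of 7 cows. SERPINH1 was 766 ± 330 CPM in Control and 454 ± 203 CPM in sPIF explants, lower in 6 of 7 cows. The edgeR test called 0 of 13233 genes on this contrast, so no test outcome is read for SERPINB9 or SERPINH1. SERPINA1 was the 1 serpin of these 3 that was higher with sPIF. Nothing is read from this, since the study chose all 3 on that contrast. CNN1, a smooth muscle marker and the 1 gene of the cell type marker lists used here with a symbol, was 78.1 ± 46.8 CPM in Control and 49.4 ± 34.2 CPM in sPIF explants (SD, n = 7 cows), lower in 7 of 7 cows, and it too was chosen by the study on this contrast. Its part in the differences of LCN2, SERPINA1 and C3 was not tested. No symbol was available for the listed markers of epithelium, stroma, endothelium, neutrophils, macrophages, lymphocytes and red blood cells.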

How the data were processed

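The deposited values are raw read counts per gene, which the authors made with Trimmomatic 0.36.0, Bowtie2 2.2.6 and featureCounts 1.4.6. A last line of column totals was left out. Lane and progesterone group came from the study's text, and the pairing from the sample titles. Pairing was checked by correlating deviations from the group means across genes. The correlation was 0.412 to 0.764 for the same cow (median 0.667) and -0.559 to 0.543 for different cows (median -0.121). These ranges overlapped, so the check does not settle every pair. Genes were kept where each library held 10 or more counts, and were fitted with edgeR 4.0.16 in R 4.3.3 (TMM, quasi-likelihood test, cow as a block, Benjamini-Hochberg threshold 0.1). Lane and progesterone were tested on counts summed per cow. DESeq2 1.42.0 was the alternative test. Log2 CPM used a prior count of 2. Counting intervals are exact 95% binomial intervals of both counts, scaled by the library sizes. Only the edgeR tests of sPIF, lane, progesterone and the interaction with lane were tested on simulated data. Symbols came from the study's supplementary gene table, for 89 of 102 identifiers after an extra 0 was removed from 27, and 0 identifiers matched the RefSeq gene table, so gene lists and markers were not tested. Named genes are the 3 genes, the 5 with a symbol most correlated with each, and the most abundant genes with a symbol of each list. The genes and lists were chosen with earlier results of these data known.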

Additional observations from a re-analysis of the deposited data

How the results depend on the processing

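The log2 difference of sPIF minus Control kept its sign in all 17 alternatives for each gene, between 0.99 and 1.41 for LCN2, 0.98 and 1.41 for SERPINA1 and 0.30 and 0.78 for C3, with 1.11, 1.02 and 0.75 without the replicate block (cow). DESeq2 called 100 genes for sPIF, 24 for progesterone and 175 for the interaction with lane, where edgeR called 0, and the cause was not tested. Leaving out each cow in turn, the difference between lanes spanned -1.23 to 0.26 for LCN2, -1.32 to -0.50 for SERPINA1 and -1.39 to -0.83 for C3, and that between progesterone groups -1.24 to 0.15 for SERPINA1 and -0.59 to 0.65 for C3. With Control explants alone the difference between lanes was -0.72 for C3, and that between progesterone groups was 0.18 for SERPINA1 and 0.065 for C3. For LCN2 with SERPINA1, Spearman's rho was 0.643 in Control and 0.571 in sPIF explants, and r without the 2 farthest cows was 0.525, -0.0892 and, for differences, 0.743. For LCN2 with C3, r without those cows was 0.937 in Control explants and 0.287 for differences. For SERPINA1 with C3, rho was -0.0357 in sPIF explants and r without those cows was 0.619 for differences. Without replicate 3 (cow 3), chosen after seeing the data for these results, r of LCN2 with SERPINA1 was 0.758, 0.725 and 0.763 in Control explants, sPIF explants and differences, and the interaction of C3 with progesterone was 0.026. The causes of these changes were not tested. For lane, progesterone and interactions 89 of 105 values kept their direction and side of an adjusted p of 0.1, though with lane as a covariate the progesterone difference was -2.04 for LCN2, -0.995 for SERPINA1 and -0.49 for C3. Of 54 alternative correlations 42 kept their direction and side of an unadjusted p of 0.05, the threshold used for this count, though those of differences are descriptions only. The alternatives for gene lists were not run, as too few genes had a symbol. LCN2 counts of 10 to 43 in cows 3 and 5 limit the precision of their ratios.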
